A study of Mus musculus with 5 samples.

Results

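The genes described here encode the enzymes that conjugate drugs, bile pigments, steroids and reactive products of metabolism. Of the 32285 genes in the deposited matrices, 66 were chosen by symbol. They comprised 21 soluble glutathione transferases (Gsta, Gstm, Gstp, Gstt, Gsto and Gstk), 3 membrane-bound ones (Mgst), 21 UDP-glucuronosyltransferases (Ugt1a, Ugt2a, Ugt2b and Ugt3a) and 21 sulfotransferases (Sult with a number). Their transcripts were measured by droplet single-cell RNA sequencing of 5 segments of the mouse gut (duodenum, jejunum, ileum, colon and rectum), with 1 library per segment. The labels name epithelial, mesenchymal and immune cells as the material, sorted as negative for propidium iodide at 5 µg/ml, a dye that enters dead cells. They give no strain, age, sex, genotype or treatment, so the 5 groups differ by segment alone as far as the labels go. The study's own subject is a Gnai1-positive stromal population, and no segment has a replicate.

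UDP-glucuronosyltransferases sit in the membrane of the endoplasmic reticulum and move glucuronic acid from UDP-glucuronic acid onto bilirubin, steroids and drugs. Glutathione transferases join glutathione to electrophiles, either in the cytosol or, for the Mgst proteins, within membranes. Sulfotransferases of the cytosol move sulfate from the donor PAPS onto phenols, catecholamines and steroids. In the gut these enzymes act on what is absorbed before it reaches the blood, and the conjugates leave through efflux pumps.

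After filtering, 11922 of 16535 barcodes were kept, and 30 barcodes occurred in more than 1 library. Clusters were named from marker genes, and the 66 genes were left out of the genes used for clustering and naming. In the order duodenum, jejunum, ileum, colon, rectum, which holds for all values below, absorptive-like cells numbered 636, 627, 588, 253 and 111, crypt-like cells 362, 117, 223, 430 and 418 and goblet-like cells 46, 35, 254, 385 and 242. The absorptive class was made of different clusters along the gut: clusters 7, 12 and 14 in duodenum and jejunum, clusters 28 and 29 in ileum, cluster 31 in colon and cluster 36 in rectum. Crypt-like cells were mostly cluster 3 in the small intestine, 30 in colon and 35 in rectum, and cluster 35 rested on 7 of 18 crypt markers. Goblet-like cells were cluster 15 in the small intestine, 32 and 33 in colon and 34 in rectum. In all 3 classes a comparison between small and large intestine is therefore also one between different clusters. Cluster 14, led by Rbp7, Reg1 and Car4, rested on 3 markers of each absorptive list, and cluster 28 was led by Reg3g and Reg3b. Median mitochondrial shares were 9.8 to 16% in absorptive-like cells, 7.21 to 10.6% in crypt-like cells and 4.35 to 8.6% in goblet-like cells. The immune cells of the same libraries, 2032, 973, 1297, 807 and 1172 in number, are given as a background, since free RNA is counted in them too. UMIs (single counted molecules) were summed per class and library and are given as CPM, counts per 1000000 UMIs of that sum. All intervals are exact 95% Poisson intervals that cover counting error only.

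Summed over each family, transcripts of soluble glutathione transferases in absorptive-like cells stood highest in duodenum and lowest in rectum, with 4285, 3041, 1203, 1439 and 708 CPM. The membrane-bound group stayed within a narrower range, with 2058, 1999, 1764, 2515 and 1972 CPM. The sums of the sulfotransferases were 1316, 1620, 1489, 2030 and 1144 CPM, and those of the glucuronosyltransferases were 815, 756, 492, 508 and 219.9 CPM. In crypt-like cells the order was different for sulfotransferases, whose sums were 271, 304, 263, 1636 and 689.9 CPM. There both large intestinal libraries lay above all 3 small intestinal ones, as they also did for soluble glutathione transferases, with 807, 774, 661, 1538 and 1329 CPM. Goblet-like cells held 158, 208, 86.3, 819.6 and 183 CPM of sulfotransferases and 194, 169.8, 99.4, 222 and 156 CPM of glucuronosyltransferases, lower in each segment than the absorptive-like cells of that segment.

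**Figure D1:**
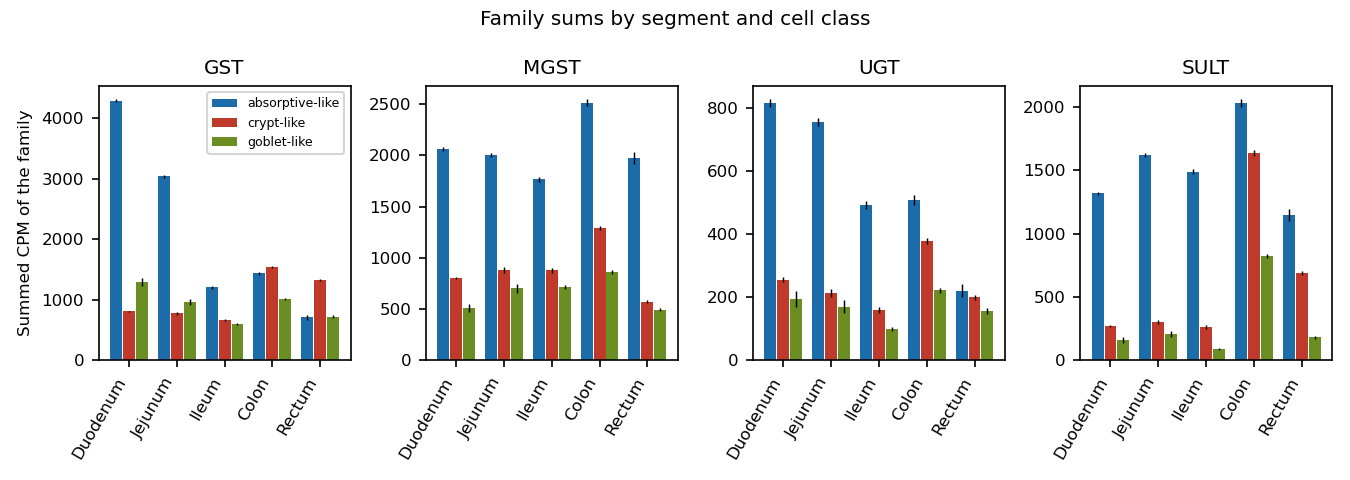
Summed level of each enzyme family in CPM (vertical axis, from 0) by segment (horizontal axis) in absorptive-like, crypt-like and goblet-like cells, 1 library per bar, with exact 95% Poisson intervals. The bar of soluble glutathione transferases in absorptive-like cells stands at 4285 CPM in duodenum and at 708 CPM in rectum, while sulfotransferases of crypt-like cells stand highest in colon at 1636 CPM.

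A gene was set apart between small and large intestine where the lowest CPM of one side was at least 4 times the highest of the other and the class held at least 50 UMIs of it. In absorptive-like cells 38 of the 66 genes had that many UMIs. Ugt2a3 was set apart towards small intestine, 1 of 38 genes beside 2.71% of all genes, and Sult1a1 and Sult1c2 towards large intestine, 2 of 38 beside 2.97%. In crypt-like cells the genes set apart were Ugt2a3 towards small intestine, 1 of 35 beside 1.18%, and Gstm1, Sult1a1 and Sult1c2 towards large intestine, 3 of 35 beside 1.42%. In goblet-like cells none of 31 was higher in small intestine, beside 1.06% of all genes, and Sult1a1 alone was higher in large intestine, beside 0.88%. Counted by values that do not overlap, without a fold limit, 13 of 38 genes were higher in small and 7 in large intestinal absorptive-like cells, beside 24.4% and 26.3% of all genes. The balance differed in crypt-like cells, where 3 of 35 were higher in small intestine and 16 in large intestine, beside 31.2% and 18.9%. In goblet-like cells 3 of 31 were higher in small and 12 in large intestine, beside 9.9% and 31.2%. No test of these levels was made between segments.

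Differences between cell classes were tested on the sums with edgeR's quasi-likelihood test, library as a block and Benjamini-Hochberg adjustment over all genes tested, so that the 5 libraries serve as replicates and their spread includes the differences between segments. Of 36 genes tested, 19 were higher in absorptive-like than in crypt-like cells, beside 32.5% of 11761 genes, and 3 were lower, beside 29.9%. Their median log2 difference was 1.60, and that of all genes was 0.06. Of 33 genes tested between goblet-like and absorptive-like cells, 18 were lower in goblet-like cells, beside 23.4% of 11106 genes, and 1 was higher, beside 24.5%, with a median log2 difference of -1.59 against 0.03 for all genes. Both contrasts use the same absorptive sums. TMM scaling, on which these folds rest, raises the absorptive to crypt ratio of every gene by 0.14 to 0.63 on the log2 scale relative to plain CPM, and lowers the goblet to absorptive ratio by 0.05 to 0.35. Absorptive-like cells had the highest mitochondrial shares. With at most 10% mitochondrial UMIs, only duodenum, jejunum and ileum kept absorptive-like cells, and colon and rectum dropped out. In these 3 libraries 24 genes were higher in absorptive-like than in crypt-like cells. The share of all genes called in that fit is not given here, so this count is not set against the 19 above. The effect of the limit and that of leaving out the large intestine cannot be told apart. Under that limit the goblet calls of Gsta1, Gstm5, Gstp1, Gstp2, Gstt1, Ugt1a6a and Ugt2b34 were lost.

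**Figure D2:**
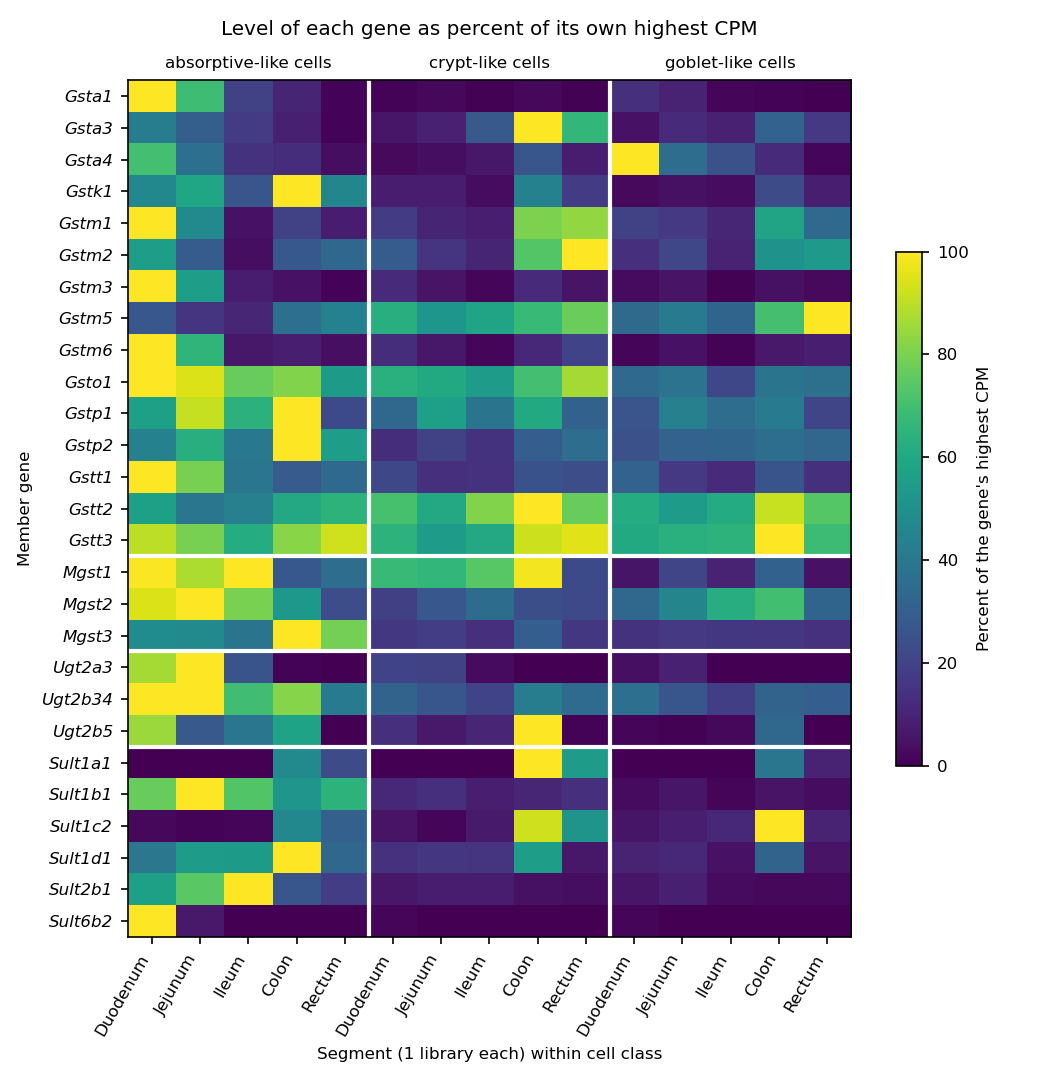
Heat map of the 27 genes with at least 50 UMIs and 50 CPM in a class of a library (rows), across the 5 segments of absorptive-like, crypt-like and goblet-like cells (columns). Colour is the percent of the gene's own highest CPM, so that colours compare columns within a gene and not genes with each other. Dark colours are low and bright colours are high. Sult1a1 and Sult1c2 are brighter in the colonic and rectal crypt columns than in the small intestinal crypt columns. Gsta1, Gstm3 and Gstm6 are brightest in the duodenal and jejunal absorptive columns.

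Among the glucuronosyltransferases, Ugt2a3 (chromosome 5, 87324972 to 87337195 on GRCm38.p6) marked the small intestine. Its level in absorptive-like cells was 143, 165, 42.5, 1.86 and 0 CPM. All 3 small intestinal libraries lay above both large intestinal ones, and ileum was lower than duodenum and jejunum. The colonic value came from 16 UMIs in 2 of 253 cells, and rectum had none, which allows up to 1.5 CPM. Ileum was 22.9-fold above colon. Crypt-like cells held 32.9, 31.6, 4.7, 0 and 0 CPM, at least 22.5-fold lower in colon and rectum than in ileum when a count of 0 is set to 3 counts. Goblet-like cells held 6.8, 15.4, 0.579, 0.0808 and 0 CPM, and immune cells 1.32, 2.22, 0, 0 and 0 CPM. The edgeR log2 difference was 3.22 ± 0.40 (SE, adjusted p = 0.00113) between absorptive-like and crypt-like cells and -4.63 ± 0.43 (SE, adjusted p = 0.000746) between goblet-like and absorptive-like cells. Since the large intestine was almost without it, these differences rest on the small intestinal libraries.

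Ugt2b34, from the cluster of Ugt2 genes on chromosome 5, was found along the whole gut. Absorptive-like cells held 481, 481, 333, 393 and 201 CPM, a range in which colon lay between the small intestinal values and rectum was lowest. Crypt-like cells held 154, 128, 97.1, 203 and 169 CPM and goblet-like cells 176, 129, 89.2, 153 and 143 CPM. In each segment the absorptive-like value was the highest of these 3 classes. The edgeR log2 difference from crypt-like cells was 1.76 ± 0.33 (SE, adjusted p = 0.00339), and that of goblet-like from absorptive-like cells was -1.63 ± 0.24 (SE, adjusted p = 0.00208). Of all UMIs of the family in absorptive-like cells, Ugt2b34 made up 59.0% in duodenum and 91.4% in rectum.

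Ugt2b5 separated colon from rectum. Its absorptive level was 87.4, 28.8, 40.4, 59.5 and 0 CPM. Rectum had 0 UMIs against 513 in colon, so colon was at least 39.8-fold higher when 3 counts are assumed for rectum. In crypt-like cells it stood at 14.2, 7.01, 11, 103 and 0.833 CPM, and colon exceeded rectum by 123-fold (95% interval 70.5 to 239.5) with 1479 against 12 UMIs. In goblet-like cells, with 1.7, 0.699, 2.17, 34.4 and 0.184 CPM, colon also exceeded rectum. Colon and rectum are 1 library each, and whether they differ by segment or by library cannot be told apart. Within the small intestine the absorptive level was highest in duodenum, 3.04-fold (95% interval 2.76 to 3.35) above jejunum. The absorptive to crypt difference was 1.82 ± 0.65 (SE, adjusted p = 0.0461) in edgeR. That call was lost without duodenum (1.33, adjusted p = 0.166), without jejunum (1.53, adjusted p = 0.145) or without ileum (1.57, adjusted p = 0.154). The Ugt2b genes are near-identical in long stretches, so the division of reads among them is uncertain.

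The other 18 glucuronosyltransferases did not reach 50 CPM in any of these classes. Ugt1a genes share their last exons and differ by alternative starting exons, so reads from the shared end cannot be assigned to 1 of the 9 symbols with certainty. Of them, Ugt1a1, the enzyme of bilirubin, and Ugt1a5, Ugt1a6a and Ugt1a7c were among the genes higher in absorptive-like than in crypt-like cells by edgeR, as was Ugt2b36. The calls of Ugt1a7c and Ugt2b36 did not hold with each library left out. Ugt2a1, Ugt2a2 and Ugt3a2 had 0 UMIs in all deposited barcodes.

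Upstream sequences are shown for 5 genes, chosen after their levels were seen, to give the letters beside the levels. Of them Gsta1 and Sult6b2 were not set apart by the 4-fold rule. They are the 250 bases before a start site listed by RefSeq on GRCm38.p6, 5′ to 3′ on the strand of the gene. Capitals mark matches on either strand to a half-site of HNF1 (GTTAAT) or a GATA site (AGATAA, read as TTATCT from the other strand). The intervals were chr5:87337196-87337445, minus strand, for Ugt2a3, chr6:142804467-142804716, minus strand, for Sult6b2, chr9:78230419-78230668, plus strand, for Gsta1, chr7:126676419-126676668, minus strand, for Sult1a1, and chr17:53845959-53846208, minus strand, for Sult1c2.
Ugt2a3: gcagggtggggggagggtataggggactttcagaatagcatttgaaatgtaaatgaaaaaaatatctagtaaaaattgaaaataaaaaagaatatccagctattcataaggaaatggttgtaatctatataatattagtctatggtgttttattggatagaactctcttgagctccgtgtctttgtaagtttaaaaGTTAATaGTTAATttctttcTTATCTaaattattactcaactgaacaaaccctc
Sult6b2: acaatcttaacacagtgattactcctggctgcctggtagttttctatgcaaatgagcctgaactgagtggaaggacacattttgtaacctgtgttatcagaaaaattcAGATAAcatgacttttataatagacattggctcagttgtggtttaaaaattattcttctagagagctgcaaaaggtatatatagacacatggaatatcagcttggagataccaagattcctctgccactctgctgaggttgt
Gsta1: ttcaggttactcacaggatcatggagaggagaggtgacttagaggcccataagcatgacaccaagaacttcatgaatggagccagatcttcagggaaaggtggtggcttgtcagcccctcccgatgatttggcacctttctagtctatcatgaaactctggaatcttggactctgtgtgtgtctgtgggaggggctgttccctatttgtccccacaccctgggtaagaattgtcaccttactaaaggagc
Sult1a1: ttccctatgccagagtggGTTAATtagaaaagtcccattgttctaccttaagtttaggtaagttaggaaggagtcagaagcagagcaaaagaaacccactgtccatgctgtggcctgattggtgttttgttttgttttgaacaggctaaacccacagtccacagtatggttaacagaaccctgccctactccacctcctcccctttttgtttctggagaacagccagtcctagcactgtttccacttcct
Sult1c2: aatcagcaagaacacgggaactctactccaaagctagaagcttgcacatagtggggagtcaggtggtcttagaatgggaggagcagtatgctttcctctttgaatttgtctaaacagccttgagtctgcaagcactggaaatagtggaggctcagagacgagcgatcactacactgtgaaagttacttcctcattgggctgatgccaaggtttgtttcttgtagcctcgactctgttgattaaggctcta
Ugt2a3 had 2 copies of GTTAAT, from 54 to 49 and from 47 to 42 bases before the start, and the GATA match from 34 to 29 bases before it. Sult6b2 had AGATAA from 142 to 137 bases before the start, and Sult1a1 had GTTAAT from 232 to 227 bases before it. Gsta1 and Sult1c2 had neither motif. Promoter entries of this kind matched 58 of the 66 genes, with 69 start sites. GTTAAT occurred in 20.3% of these and in 6.43% of all 32851 promoters, and AGATAA in 17.4% and 9.99%. The 14 genes with GTTAAT include Sult2a3, Sult2a4, Sult2a5, Sult2a6 and Sult3a2, which had 0 UMIs in all deposited barcodes. The core of the antioxidant response element (TGACNNNGC) occurred in 5.8% against 10.2% of all, and the core of the xenobiotic response element (GCGTG) in 17.4% against 28.2%, both strands searched. These are matches of letters and not measured binding sites.

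Among the sulfotransferases, Sult1a1 (chromosome 7, 126672865 to 126690443), which acts on phenols, was near 0 in small intestinal and high in large intestinal cells of all 3 classes. Absorptive-like cells held 0.138, 0.106, 0.354, 394 and 192 CPM, from 3, 2, 4, 3396 and 385 UMIs. Rectum was 542-fold above ileum, the highest of the small intestine. Crypt-like cells held 0.351, 0.619, 1.99, 829 and 457 CPM, and goblet-like cells 0, 0, 0.145, 325 and 82.5 CPM. Immune cells held 24.3, 26.8, 6.84, 20.5 and 8.55 CPM, in each small intestinal library more than its absorptive-like, crypt-like and goblet-like cells, and endothelial cells held 217, 150.0, 398, 206 and 162 CPM. It was lower in absorptive-like than in crypt-like cells, with an edgeR log2 difference of -1.08 ± 0.23 (SE, adjusted p = 0.006) and plain log2 ratios (1 CPM added to both classes) of -1.07 in colon and -1.25 in rectum. Without colon or without rectum it did not pass the filter on low counts and was not tested. At Leiden resolution 2.0 the difference was -0.48, adjusted p = 0.261.

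Sult1c2 also lay higher in colon and rectum than in small intestine in crypt-like cells, with 5.03, 1.65, 6.83, 85.9 and 47.8 CPM. In absorptive-like cells it stood at 2.16, 1.06, 1.77, 43.3 and 28.4 CPM, and rectum was 13.2-fold above duodenum. That gap depends on which cells are counted as rectal absorptive: on the log2 scale it was 3.72, but 0.92 with every barcode kept, -0.08 with at least 1000 genes per cell and -0.14 at Leiden resolution 0.5, where 659, 41 and 57 rectal cells made up the class in place of 111. Goblet-like cells held 5.1, 7.69, 10.3, 92.5 and 9.37 CPM, so rectum lay among the small intestinal values there. The edgeR difference of absorptive-like from crypt-like cells was -0.69 ± 0.20 (SE, adjusted p = 0.0199). It was lost without duodenum (-0.69, adjusted p = 0.0599) and at Leiden resolution 2.0 (-0.08, adjusted p = 0.861).

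Sult6b2 (chromosome 6, 142785781 to 142804466) was a duodenal transcript. Absorptive-like cells held 107, 7.28, 0, 0.116 and 0 CPM, with 2323 UMIs in duodenum and 137 in jejunum. Duodenum exceeded jejunum by 14.7-fold (95% interval 12.3 to 17.6) and ileum at least 402-fold, with 3 counts assumed for ileum. The step was found within each absorptive cluster that the 2 libraries share: 164 against 12.7 CPM in cluster 7, 74 against 4.66 in cluster 12 and 59.6 against 3.92 in cluster 14. Duodenal crypt-like and goblet-like cells held 1.4 and 1.7 CPM, close to the 1.07 CPM of duodenal immune cells. It did not pass the filter on low counts in edgeR.

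**Figure D3:**
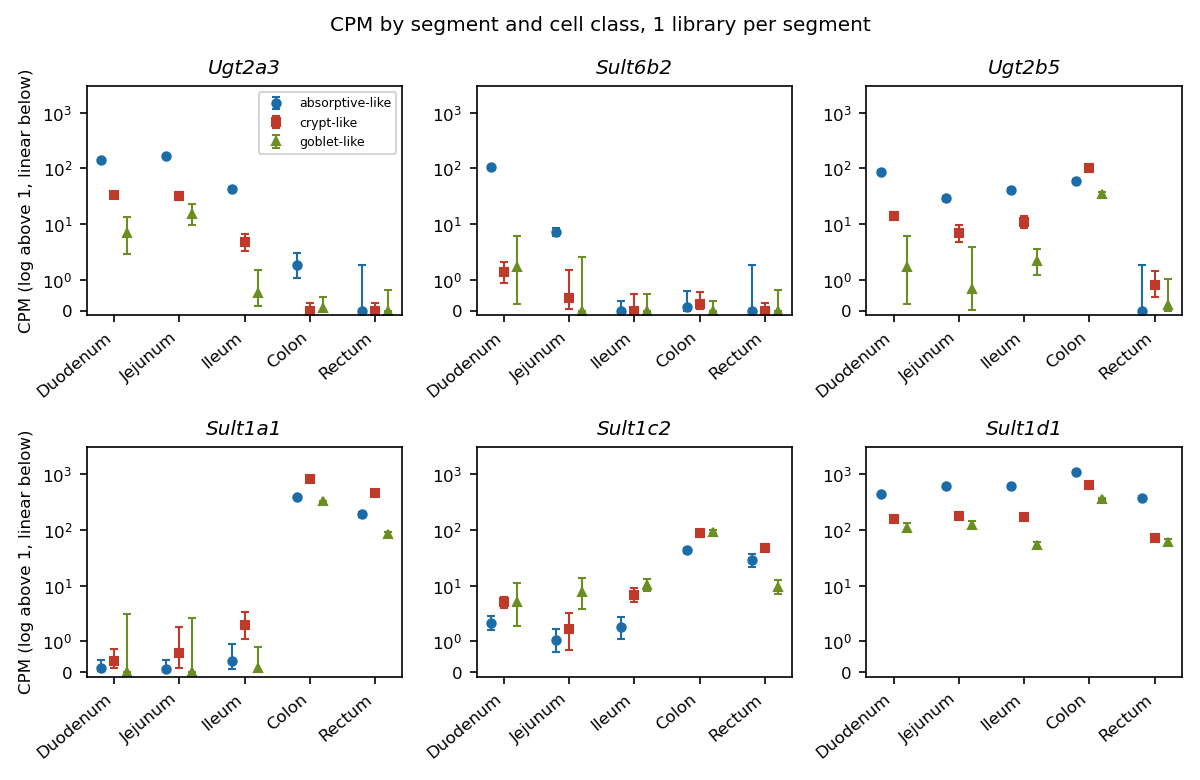
CPM with exact 95% Poisson intervals of Ugt2a3, Sult6b2, Ugt2b5, Sult1a1, Sult1c2 and Sult1d1 by segment in absorptive-like, crypt-like and goblet-like cells (vertical axis logarithmic above 1 CPM and linear below). Ugt2a3 and Sult6b2 are near or at 0 in colon and rectum, Sult1a1 lies below 2 CPM in duodenum, jejunum and ileum, and Ugt2b5 lies lower in rectum than in colon.

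Sult1b1, which acts on phenols and thyroid hormones, was an absorptive transcript in all segments. Absorptive-like cells held 572, 747, 544, 390.1 and 484 CPM, crypt-like cells 84.5, 101, 61.4, 80.4 and 101 CPM and goblet-like cells 21.3, 44.7, 11.7, 39.3 and 23.5 CPM. The lowest absorptive value lay above the highest value of the other classes. The edgeR difference was 3.11 ± 0.22 (SE, adjusted p = 0.000102) against crypt-like cells and -4.59 ± 0.31 (SE, adjusted p = 0.000228) for goblet-like against absorptive-like cells. Sult2b1, which sulfates cholesterol and other hydroxysteroids, was also highest in absorptive-like cells of every segment, with 192, 251, 338, 90.1 and 61.8 CPM in absorptive-like, 21.4, 26, 25.6, 15.8 and 12.5 CPM in crypt-like and 20.4, 30.1, 9.85, 7.19 and 7.16 CPM in goblet-like cells. Its 3 small intestinal values exceeded both large intestinal ones in each class, and the edgeR difference from crypt-like cells was 3.44 ± 0.29 (SE, adjusted p = 0.000159). Sult1d1, which sulfates catecholamines, peaked in colon, with 443, 614, 605, 1112 and 377 CPM in absorptive-like, 158, 174, 167, 624 and 71.4 CPM in crypt-like and 109.7, 124, 54.3, 356 and 60.3 CPM in goblet-like cells. Colonic crypt-like cells exceeded rectal ones by 8.74-fold (95% interval 8.19 to 9.33), and small and large intestine overlapped. The edgeR difference of absorptive-like from crypt-like cells was 2.12 ± 0.21 (SE, adjusted p = 0.00027). All 3 genes kept these calls with each library left out. The other 15 sulfotransferases stayed below 50 CPM in these classes, and Sult3a1, Sult3a2 and the 7 genes Sult2a1 to Sult2a7 had 0 UMIs in all deposited barcodes. Sult2a8 had none in epithelial cells.

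Gsta1 (chromosome 9, 78230669 to 78242683), an alpha class glutathione transferase, took the largest share of its family's UMIs in duodenal and jejunal absorptive-like cells. Absorptive-like cells held 1706, 1174, 329, 174 and 19.4 CPM. Duodenum and jejunum were highest and rectum lowest, and the 3 small intestinal values exceeded both large intestinal ones. It made up 39.8%, 38.6%, 27.3%, 12.1% and 2.75% of the soluble glutathione transferase UMIs of these cells. Crypt-like cells held 18, 39, 11, 36.6 and 12.8 CPM and goblet-like cells 232, 164, 29.1, 17 and 0.919 CPM, beside 5.84, 3.78, 0.805, 0.853 and 0.129 CPM in immune cells. The edgeR difference was 4.45 ± 1.06 (SE, adjusted p = 0.00997) for absorptive-like against crypt-like and -3.50 ± 0.23 (SE, adjusted p = 0.000228) for goblet-like against absorptive-like cells. Within the duodenum Gsta1 varied between absorptive clusters, with 2315 CPM in cluster 7, 2109 in cluster 12 and 437 in cluster 14. In jejunum the same clusters held 1272, 1274 and 222 CPM. Gsta2 and the gene model Gm3776 lie beside it on chromosome 9, alpha class genes are close copies of each other, and Gm3776 reached 257 CPM in duodenum, so how reads are divided among the 3 is uncertain.

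Gsta4, which conjugates the lipid peroxidation product 4-hydroxynonenal, had its highest values in duodenal goblet-like and absorptive-like cells. Absorptive-like cells held 376, 197, 79.2, 69.9 and 19.9 CPM and goblet-like cells 537, 193, 133, 63 and 8.27 CPM. In both classes the value was lower in each segment than in the one before it. Crypt-like cells did not follow this order, with 13.6, 19.4, 33.7, 145 and 40.1 CPM, rising from duodenum to colon and lower again in rectum. Over all libraries neither contrast passed the threshold, with edgeR differences of 1.85 ± 1.13 (SE, adjusted p = 0.189) for absorptive-like against crypt-like and -0.20 ± 0.30 (SE, adjusted p = 0.616) for goblet-like against absorptive-like cells. The order of Gsta3 also differed between these classes, at lower levels. Its values were 22.3, 15.9, 9.12, 4.64 and 0.499 CPM in absorptive-like and 3.28, 4.74, 14.7, 52.6 and 34.8 CPM in crypt-like cells, while stromal cells held 171, 340.1, 201, 64.3 and 34.4 CPM.

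The mu class lies as a cluster on chromosome 3. Gstm1 in absorptive-like cells was 414, 198, 20.9, 81.4 and 31.4 CPM, highest in duodenum and lowest in ileum, so that small and large intestine overlapped. In crypt-like cells it was 71.4, 42.3, 35.4, 333 and 348 CPM, and colon was 4.67-fold above duodenum, the highest of the small intestine. Goblet-like cells held 79.9, 68.5, 45, 242 and 142 CPM, again with colon and rectum above the rest. Stromal cells held 508, 615, 539, 527 and 513 CPM, more than crypt-like cells in every library. Gstm3 and Gstm6 followed the absorptive order of Gsta1 within the small intestine, with 629, 351, 47.2, 30.2 and 5.49 CPM for Gstm3 and 88.5, 57.9, 5.75, 7.54 and 3.49 CPM for Gstm6. Crypt-like cells held 74.6, 33.2, 11.5, 74.5 and 32.8 CPM of Gstm3, without a split between small and large intestine. Gstm2 stood at 53.5, 28, 3.72, 26.4 and 31.9 CPM in absorptive-like cells and at 27.7, 14.6, 9.82, 70.2 and 95.7 CPM in crypt-like cells, where both large intestinal values were above the others. None of Gstm1, Gstm2, Gstm3 and Gstm6 passed the edgeR threshold in either class contrast over all libraries.

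Gstm5 was the only mu gene that passed the edgeR threshold in the class contrasts over all libraries, with the same direction in every library. It was lower in absorptive-like cells, with 29.5, 16.8, 11.6, 39.8 and 47.9 CPM, than in crypt-like cells, with 68.7, 57.3, 63.5, 73.7 and 83.9 CPM, and the edgeR log2 difference was -0.98 ± 0.24 (SE, adjusted p = 0.0102). It was the only one of the 33 genes tested that was higher in goblet-like than in absorptive-like cells, by 0.90 ± 0.21 (SE, adjusted p = 0.0118), with goblet values of 37.4, 45.4, 35.2, 76.6 and 109 CPM. Both calls held with each library left out. With at most 10% mitochondrial UMIs, where only the small intestinal libraries remained, they did not hold. The edgeR values were -0.83, adjusted p = 0.0727 against crypt-like cells, and 0.47, adjusted p = 0.384 for goblet-like against absorptive-like cells. The mu genes are close copies of each other, which makes the division of their reads uncertain.

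The omega, kappa and pi classes are also soluble. Gsto1, a thioltransferase that also reduces dehydroascorbate, was 404, 383, 309, 328 and 219.9 CPM in absorptive-like and 257, 246, 224, 284 and 349.7 CPM in crypt-like cells. The classes overlapped, and the edgeR difference of 0.71 ± 0.27 (SE, adjusted p = 0.0552) did not pass the threshold. Goblet-like cells held less, 139, 153, 87.2, 155 and 149 CPM, with a log2 difference from absorptive-like cells of -1.47 ± 0.20 (SE, adjusted p = 0.00141). Gstk1, the kappa class enzyme of mitochondria and peroxisomes, was 73.6, 93.3, 41.3, 157 and 72.3 CPM in absorptive-like, 12.1, 12.8, 5.41, 69.2 and 27.3 CPM in crypt-like and 4.25, 6.99, 5.07, 36.8 and 13.2 CPM in goblet-like cells. Every absorptive value lay above that of the other classes in its own segment, and the edgeR differences were 2.61 ± 0.37 (SE, adjusted p = 0.0011) and -3.14 ± 0.30 (SE, adjusted p = 0.000547). Gstp1, of the pi class, was 177, 284, 200.2, 311 and 70.3 CPM in absorptive-like and 103, 175, 119, 189 and 97.1 CPM in crypt-like cells. Rectum was the segment where crypt-like cells held more. Its edgeR difference of 0.95 ± 0.26 (SE, adjusted p = 0.0177) was lost without duodenum, jejunum, ileum or colon, with log2 values of 0.86, 0.86, 0.86 and 0.89. Immune cells held 22.7 to 40.8 CPM of Gstp1. Gstp2, a close copy of Gstp1, was 33.2, 47.6, 30.6, 75.4 and 41.9 CPM in absorptive-like and 9.95, 14.8, 11, 22.5 and 26.9 CPM in crypt-like cells, a difference of 1.91 ± 0.25 (SE, adjusted p = 0.000767) in edgeR.

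The theta class acts on small halogenated compounds. Gstt1 was 80.7, 64.3, 31.7, 23.2 and 27.4 CPM in absorptive-like and 17.6, 11.1, 11.4, 20.3 and 19 CPM in crypt-like cells, with an edgeR difference of 1.83 ± 0.43 (SE, adjusted p = 0.00923). Enteroendocrine-like cells held 567, 392, 310.3, 56.3 and 67.7 CPM, in every library more than either class, from 26, 10, 19, 54 and 16 cells and without a test. Gstt2 was 45.2, 31.4, 34.7, 47.9 and 51.4 CPM in absorptive-like cells, and immune cells held 11 to 25.6 CPM. Its edgeR difference between absorptive-like and crypt-like cells, -0.12 ± 0.13 (SE, adjusted p = 0.43), did not pass the threshold. That value depended on the scaling, since the plain log2 ratios of Gstt2 were all negative, -0.31, -0.60, -0.87, -0.72 and -0.24. Gstt3 was 45.5, 40.1, 31.2, 41.5 and 46.9 CPM in absorptive-like and 32.7, 27.6, 30.5, 46.8 and 48.3 CPM in crypt-like cells. Its edgeR difference of 0.61 ± 0.18 (SE, adjusted p = 0.025) depended on the scaling, since plain log2 ratios were 0.47, 0.52, 0.04, -0.17 and -0.04, and was lost without duodenum, jejunum or ileum, with 0.51, 0.47 and 0.61. Gstm4, Gstm7, Gsta2, Gstp3, Gsto2 and Gstt4 did not reach 50 CPM, and Gstm4 had the highest value among all 39 genes that did not, 41.5 CPM.

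The 3 membrane-bound enzymes had different patterns. Mgst3 was 1016, 995, 798, 2085 and 1651 CPM in absorptive-like cells, and both large intestinal values exceeded the small intestinal ones. Crypt-like cells held 335, 375, 287, 622 and 334 CPM and goblet-like cells 302, 347, 337, 326 and 301 CPM. The edgeR difference was 2.15 ± 0.11 (SE, adjusted p = 6.84e-05) against crypt-like cells and -2.13 ± 0.27 (SE, adjusted p = 0.00122) for goblet-like against absorptive-like cells. Tuft-like cells, 9, 6, 6, 3 and 1 in number, held 1311, 1617, 2868, 1980 and 1057 CPM. Mgst1, found in endoplasmic reticulum and outer mitochondrial membrane, was 547, 482, 550.1, 152 and 196 CPM in absorptive-like cells, lower in large than in small intestine. In crypt-like cells it was 371, 364, 408, 540.3 and 123 CPM, and colon exceeded rectum by 4.38-fold (95% interval 4.16 to 4.61). The edgeR difference of absorptive-like from crypt-like cells, 0.53 ± 0.38 (SE, adjusted p = 0.257), did not pass the threshold. Goblet-like cells, with 30.6, 116, 52.3, 172 and 27.4 CPM, differed from absorptive-like cells by -2.70 ± 0.59 (SE, adjusted p = 0.0093). Mgst2, which can make leukotriene C4, was 494, 522, 416, 278 and 124 CPM in absorptive-like, 98.3, 141, 183, 125 and 114 CPM in crypt-like and 174, 238, 325, 363 and 168 CPM in goblet-like cells. It was higher in absorptive-like than in crypt-like cells by 1.79 ± 0.38 (SE, adjusted p = 0.00594) in edgeR, and the goblet to absorptive difference of -0.63 ± 0.32 (SE, adjusted p = 0.147) did not pass.

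**Figure D4:**
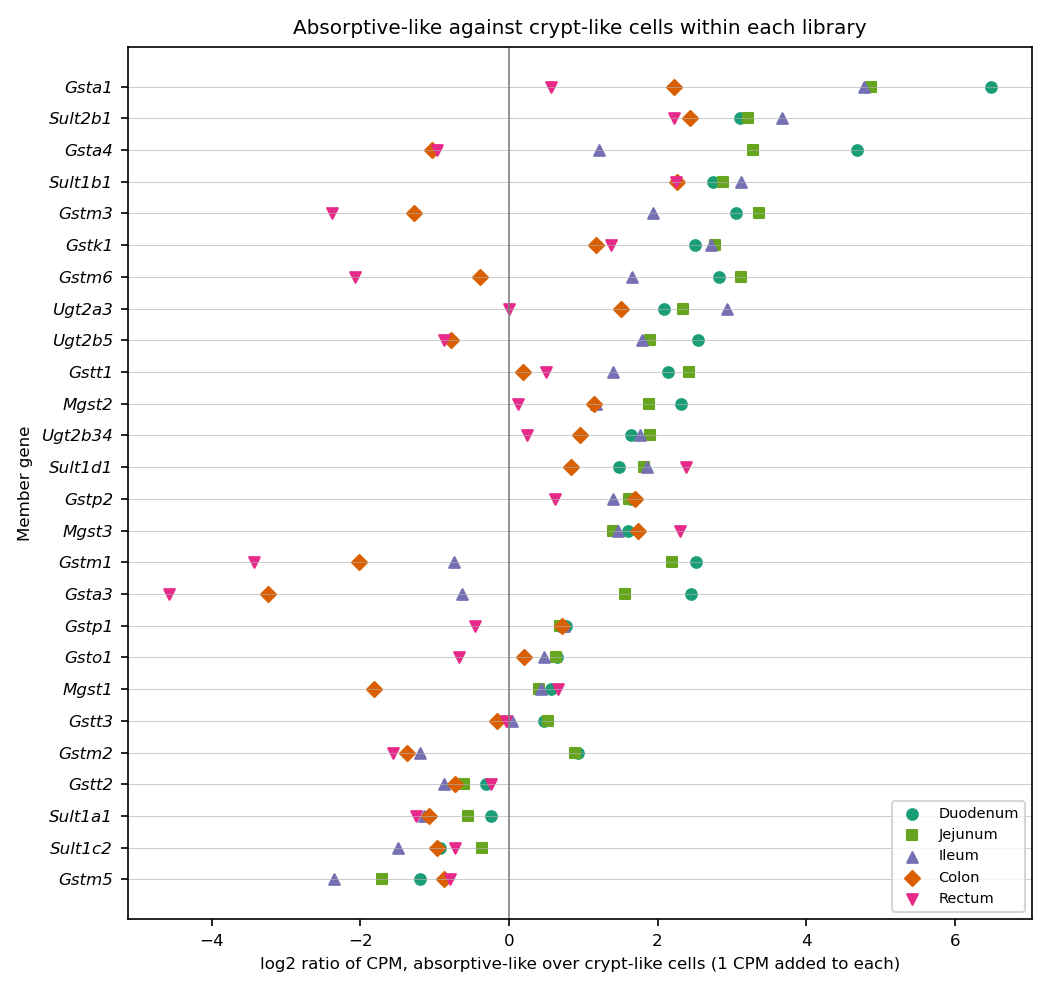
Log2 ratio of absorptive-like to crypt-like CPM (horizontal axis, 1 CPM added to both) in each library, 1 point per library, for 26 genes (vertical axis). Points of Sult1b1, Sult2b1 and Mgst3 lie right of 0 in all 5 libraries, and those of Gstm3, Gstm6 and Ugt2b5 lie right of 0 in small and left of 0 in large intestine.

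Whether the class differences were alike in small and large intestine was tested with an interaction term in the same edgeR model. The term was added after the levels had been seen. It takes the 3 small and the 2 large intestinal libraries as replicates of each side, although each is a different segment. Its p-values do not measure the spread between replicates of a segment. Whether a difference comes from side, segment or library cannot be told apart. For absorptive-like against crypt-like cells, 15 of 36 genes had a smaller or opposite difference in large intestine, beside 9.26% of all genes. None had a larger one, beside 4.09% of all genes, and 1, Ugt2a3, was higher at an unadjusted p under 0.05. For Gstm3 the plain log2 ratios were 3.06, 3.36, 1.94, -1.28 and -2.38, positive in the 3 small and negative in the 2 large intestinal libraries, and the interaction was -4.78 ± 0.57 (SE, adjusted p = 0.00539). Gstm6 had ratios of 2.83, 3.12, 1.66, -0.39 and -2.08 and an interaction of -4.22 ± 0.56 (SE, adjusted p = 0.00645). Ugt2b5 had ratios of 2.54, 1.90, 1.79, -0.78 and -0.87 and an interaction of -3.15 ± 0.39 (SE, adjusted p = 0.00557), which was lost without colon. In Gstm1 the ratios were 2.52, 2.20, -0.74, -2.02 and -3.43, ileum lying on the side of the large intestine, and in Gsta4 they were 4.69, 3.28, 1.21, -1.04 and -0.97. Their interactions of -4.36 ± 1.07 (SE, adjusted p = 0.0387) for Gstm1 and -4.39 ± 0.96 (SE, adjusted p = 0.0279) for Gsta4 were lost without jejunum, colon or rectum, and for Gstm1 also without duodenum. Gsta1 kept a positive ratio in all libraries, 6.49, 4.88, 4.78, 2.22 and 0.56, with an interaction of -4.14 ± 0.71 (SE, adjusted p = 0.0135) that was lost without rectum. For Sult1b1 and Sult2b1 the interactions were -0.90 ± 0.21 (SE, adjusted p = 0.0362) and -1.19 ± 0.26 (SE, adjusted p = 0.0266), but the first was lost whichever library was left out and the second without jejunum, ileum or rectum. Gstk1, Gstm3, Gstm6 and Gstm7 kept the call in all 5 cases. With jejunum left out 7 genes passed in this direction, and with rectum left out 7 passed, 6 of them among the 15.

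For goblet-like against absorptive-like cells, 6 of 33 genes had a higher difference in large intestine, beside 3.97% of all genes, and none a lower one, beside 3.42% of all genes. At an unadjusted p under 0.05, 3 were lower, namely Gsta4, Mgst3 and Sult1c2. Gstm3 had log2 ratios of -5.06, -3.41, -3.25, -0.12 and 1.29 and an interaction of 4.33 ± 0.63 (SE, adjusted p = 0.0102) in edgeR, and was the only one that kept its call with each library left out. Ugt2b5 had ratios of -5.03, -4.13, -3.71, -0.77 and 0.24 and an interaction of 3.70 ± 0.54 (SE, adjusted p = 0.0101), and Gstm6 ratios of -5.05, -3.50, -1.97, -0.27 and 0.93 and 4.12 ± 0.69 (SE, adjusted p = 0.015). In all 3 the goblet-like level was below the absorptive-like one in every small intestinal library and in colon. In rectum it was above for Gstm3 and Gstm6, and Ugt2b5 had 0 UMIs in rectal absorptive-like cells. These interactions use the same absorptive sums as those above, and segments again stand in for replicates.

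Genes that supply, remove or regulate these reactions were described from 6 lists. They had not been left out of clustering, so the grouping of cells was not independent of them. Of 5 genes for UDP-glucuronic acid, 4 were higher in absorptive-like than in crypt-like cells by edgeR (Ugp2, Ugdh, Slc35d1 and Slc35d2) and 1 was lower, Gusb, the lysosomal β-glucuronidase, beside 32.5% of all genes higher and 29.9% lower. Ugdh, which makes UDP-glucuronic acid, was 329.8, 274, 209.7, 942 and 236 CPM in absorptive-like and 74.4, 58.6, 55.5, 330.5 and 63.3 CPM in crypt-like cells, a difference of 2.38 ± 0.17 (SE, adjusted p = 0.000107). Of 10 genes for sulfate and its donor, 6 were higher and 1 lower, beside the same 32.5% and 29.9%. The 6 include Slc26a3, which was itself a marker used to name absorptive clusters, so its call is not independent of the naming. Papss2, which makes PAPS, was 672, 175, 92.1, 956 and 171 CPM in absorptive-like and 9.72, 10.1, 1.57, 302 and 75.1 CPM in crypt-like cells. The lower of the colonic and rectal crypt values was 7.43-fold above the highest of the small intestine. The class difference of Papss2 was 4.17 ± 1.01 (SE, adjusted p = 0.0103), smaller in large intestine by an interaction of -4.16 ± 0.56 (SE, adjusted p = 0.00654).

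Of 6 efflux pumps, 4 were higher in absorptive-like than in crypt-like cells by edgeR (Abcb1a, Abcc2, Abcc3 and Abcg2) and Abcc4 was lower, beside 32.5% of all genes higher and 29.9% lower. Abcc2, the apical pump for glucuronides and glutathione conjugates, was 253, 272, 182, 3.13 and 0.499 CPM in absorptive-like cells, with all small intestinal values above the large intestinal ones, and its class difference was 3.24 ± 0.17 (SE, adjusted p = 6.84e-05). Abcc3, the basolateral pump, was 38.1, 26.3, 16.7, 215 and 108 CPM. Of 11 genes of glutathione supply and breakdown, 4 were higher, a share near the 32.5% of all genes, and 2 were lower, beside 29.9%. Ggt1, which splits glutathione at the cell surface, was 422, 553, 600.2, 11.8 and 0 CPM in absorptive-like cells. The edgeR difference of Gclc, of glutathione synthesis, was 0.65 ± 0.17 (SE, adjusted p = 0.0148) and depended on the scaling, since the plain log2 ratios were -0.15, 0.04, 0.81, 0.22 and 0.08. The calls of Glo1 and Gpx1 depended on it too. Their plain log2 ratios were 0.15, 0.13, 0.004, 0.09 and -0.32 for Glo1 and 0.29, -0.39, -0.01, 0.02 and -0.03 for Gpx1. The glutathione peroxidase Gpx2 was lower, with a difference of -1.71 ± 0.59 (SE, adjusted p = 0.041). Of 13 regulators tested, 9 were higher, beside 32.5% of all genes, and 4 passed in neither direction. Those 9 included Nr1i3 (the receptor CAR), with 73.8, 62.6, 22.4, 1.97 and 3.49 CPM in absorptive-like cells, Nr1i2 (PXR), with 46.5, 54.4, 44.5, 33.4 and 31.4 CPM, and Nfe2l2 (NRF2), with 339.9, 299.8, 206, 306 and 151 CPM. Of 5 tested reference targets of NRF2 and the receptor AHR, 3 were higher (Cyp1a1, Srxn1 and Txnrd1), beside 32.5% of all genes, and 2 passed in neither direction. Cyp1a1 was 153, 81.3, 35.7, 19.3 and 1.5 CPM in absorptive-like and 0.41, 0.206, 0, 0.417 and 0 CPM in crypt-like cells, a difference of 8.19 ± 0.56 (SE, adjusted p = 9.39e-05).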

How the data were processed

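Values are UMI counts per gene and barcode, deposited by the authors as whole numbers without normalization. Per the submitters' processing notes, Seurat (no version stated), Cell Ranger 4.0.0 and build mm10 were used, while the matrix headers name cellranger 7.2.0. Whether the kit reads transcripts from the 3′ or the 5′ end is not given in the sources used here. The spatial measurements named in the design text were not analysed here.

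Barcodes needed 300 genes or more and a mitochondrial share of UMIs no higher than 20%, and the 333 barcodes with the highest Scrublet scores (0.8% per 1000 barcodes of a library) were removed as doublets. Total UMIs were 41953568 to 65546664 per library. Leiden clustering at resolution 1.0 used 2000 variable genes, from which the 66 genes were left out, with 30 principal components and 15 neighbours (python 3.11.15, scanpy 1.11.5, igraph 0.11.9). A cluster took a name from at least 3 markers raised 1.5-fold over the other clusters (prior 5 CPM, detected in 10% of cells). The tuft-like cluster had 11 of 11 markers raised. Names may differ from those of the study.

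UMIs were summed per class and library, with at least 20 cells per sum for tests. Sums were tested in edgeR 4.0.16 (R 4.3.3) with TMM factors, filterByExpr and library as a block, at an adjusted p of 0.05, and with DESeq2 1.42.0 as an alternative. The steps were tested on simulated data. Poisson intervals used scipy 1.17.1. A p-value therefore reflects how much the 5 libraries vary. Blocking by library comes from the design, since both classes of a contrast come from the same library.

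Genes named with values had at least 50 UMIs and 50 CPM in absorptive-like, crypt-like or goblet-like cells of a library, and genes of the 6 related lists were named where they passed a test or the 4-fold limit. Genes named beyond that rule were chosen after their values were seen. The genes, lists and comparisons were chosen with earlier results of these data known, and the interaction terms, non-overlap counts and the settings without rectum or without the ileal Reg3g cluster were added after seeing the data. Gene positions and promoters come from RefSeq on GRCm38.p6, matched by symbol.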

Additional observations from a re-analysis of the deposited data

Results flagged for a closer look

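The genes listed here had a class difference that was not the same in small and large intestine by the interaction term of the edgeR model (Benjamini-Hochberg adjusted p from 0.00539 to 0.0432). Values are differences of log2 folds, large minus small intestine. Segments, with a single library each, stand in for replicates on both sides. For absorptive-like against crypt-like cells, the mean plain log2 ratio was positive in small and negative in large intestine for 9 genes, whose interactions were -5.27 for Gsta3, -4.78 for Gstm3, -4.39 for Gsta4, -4.36 for Gstm1, -4.22 for Gstm6, -3.66 for Gstm7, -3.15 for Ugt2b5, -2.75 for Gstm4 and -2.31 for Ugt2b36. The ratio was positive on both sides but smaller in large intestine for the other 6, with interactions of -4.14 for Gsta1, -1.95 for Gstt1, -1.72 for Gstk1, -1.40 for Ugt2b34, -1.19 for Sult2b1 and -0.90 for Sult1b1.

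For goblet-like against absorptive-like cells, the mean ratio was negative in small and positive in large intestine for 5 genes, with interactions of 2.71 for Gstm7, 3.11 for Ugt2b35, 3.57 for Gsta3, 4.12 for Gstm6 and 4.33 for Gstm3. It was negative on both sides and closer to 0 in large intestine for Ugt2b5, with an interaction of 3.70. Of these 21 results, 5 kept their call with every single library left out, 4 of the first contrast and 1 of the second. Gstm4, Gstm7, Ugt2b35 and Ugt2b36 are named after their values were seen. The mitochondrial share was higher in absorptive-like than in crypt-like cells in all 5 libraries, and its part in these differences was not tested.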

How the results depend on the processing

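Of 246 counts recomputed under alternatives, 215 stayed within 1.5 times the reported value. Shares of all genes under the alternatives are not given in this section, so its counts show only how the numbers move between settings. Of 974 single-gene values 852 kept direction and call, 122 lost the call and none reversed. The 122 include gaps between segments that turned into overlap and so have no direction, as for Sult1c2. Genes that dropped out of a fit were not counted. The cause of each change was not tested, except that fewer libraries or cells entered some fits. Genes lower in absorptive-like than in crypt-like cells numbered 0 with no replicate block and 1 at Leiden resolution 2.0, against 3. With at most 10% mitochondrial UMIs, where the 3 small intestinal libraries remained, they numbered 0. Dropping the replicate block also took the number higher in goblet-like than in absorptive-like cells from 1 to 0; without it the calls of Gstm5, Ugt2a3 and Ugt2b5 were lost in both contrasts, those of Sult1a1, Sult1c2, Ugt1a7c and Ugt2b36 in the first and that of Gsta1 in the second. The number higher in goblet-like cells was 2 with every barcode kept, with at least 1000 genes or at resolution 0.5, and 1 to 2 with a library left out. DESeq2 called 24 higher and 3 lower in the first contrast and 1 higher and 23 lower in the second. It was run without filterByExpr, so these counts cannot be set against the shares of all genes from edgeR.

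The interaction of absorptive-like against crypt-like cells gave 8 lower genes with at least 1000 genes per cell, 7 to 15 with a library left out, and 2 higher at resolution 2.0. That of goblet-like against absorptive-like cells gave 3 higher with at least 1000 genes, 2 to 9 with a library left out, and 0 to 1 lower.

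Between segments, the genes set apart towards large intestine in absorptive-like cells numbered 1 with every barcode kept, with at least 1000 genes or at resolution 0.5. A gap of 2-fold, which more of all genes can also reach, gave 4 towards small intestine there. It gave 6 towards large intestine in crypt-like cells, and 1 and 2 in goblet-like cells. Without rectum 6 genes were set apart towards large intestine in crypt-like and 4 in goblet-like cells. Genes without overlap numbered 4 (mean over cells) and 13 (without rectum) towards large intestine in absorptive-like cells, 5 (every barcode, or without rectum) and 1 (at most 10% mitochondrial UMIs) towards small intestine in crypt-like cells, and 5 (every barcode) in goblet-like cells. TMM factors would shift all genes by more than 0.1 on the log2 scale in jejunal (0.12) and rectal (-0.19) absorptive-like, rectal crypt-like (0.13) and ileal goblet-like cells (0.13), with the same numbers of genes set apart. The 111 rectal absorptive-like cells and the 46 duodenal and 35 jejunal goblet-like cells limit the depth.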

Other observations

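Colonic goblet-like cells fell into 2 clusters, 32 with 288 cells and 33 with 97, that differed in these enzymes although the enzymes had not been used to form them. Cluster 32 held more Sult1a1, 405 against 13 CPM, more Mgst3, 394 against 63.7 CPM, more Mgst1, 212 against 14.9 CPM, and more Sult1d1, 418 against 116 CPM. Cluster 33 held more Mgst2, with 286 against 664 CPM in the same order. Gstm1 was near equal, 236 against 262 CPM, and so was Sult1c2, 89.1 against 106 CPM. Both clusters come from 1 library, so these are values without a test. In duodenal absorptive-like cells, cluster 14 held less Sult1b1 than clusters 12 and 7, 306 against 833 and 572 CPM, and less Sult2b1, 94 against 269 and 206 CPM. Mgst1 had another order, 639 against 379 and 605 CPM.

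Outside the epithelium, stromal cells, 51, 15, 27, 188 and 294 in number, held 347, 267, 351, 286 and 328 CPM of Mgst1, a range far narrower than in absorptive-like cells, and 86.7, 81, 129, 92 and 108 CPM of Gstt1. Sult5a1, named after its values were seen, was found in stromal cells at 11.7 to 54.3 CPM and had 0 UMIs in absorptive-like cells of every library. Sult1e1, the oestrogen sulfotransferase, also chosen in this way, reached 297 CPM in ileal stromal cells, but from 71 UMIs in 5 of 27 cells. In enteroendocrine-like cells Sult1a1 was 0, 18.9, 0, 578 and 157 CPM, high in colon and rectum as in the other epithelial classes.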
